A study of Rattus norvegicus with 6 samples.

Results

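The genes examined were those of the T cell receptor complex, its co-receptors and the cytotoxic granule, taken as the rows of the read count table whose symbol is on a list of 10. Of these, 9 were found among 26195 rows with a gene name (30562 rows in all), namely Cd3d, Cd3e, Cd3g, Cd247, Cd8a, Lck, Gzmb, Prf1 and Nkg7. No row was matched to Cd4, so this co-receptor and the planned ratio of Cd8a to Cd4 were not analysed here. Bulk RNA-seq covered 6 mammary tumors of F344 rats, an inbred strain, with 3 tumors from older rats (102, 107 and 116) and 3 from younger rats (157, 158 and 167). All rats, of both groups, carried a subcutaneous 50 mg pellet of medroxyprogesterone acetate (MPA, a progestin, released over 90 days) and received a single gavage of the carcinogen DMBA at 65 mg/kg, at 4 months of age in the younger group and at 21 to 23 months in the older group. Each tumor is 1 library, untreated mammary tissue was not analysed here, and the 3 sequenced older tumors were those with enough tissue. The tumors came from different rats, so the replicate in each test is a rat with its tumor.

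On the surface of a T cell, the clonal T cell receptor has no signaling tail of its own and depends on the CD3 delta, epsilon and gamma chains and on the zeta chain encoded by Cd247. When the receptor and a co-receptor (CD4 or CD8) bind the same peptide–MHC complex, the kinase LCK phosphorylates these tails and starts the signal. Cytotoxic T cells then release granules that hold perforin, which opens the target membrane, and granzymes, proteases that start apoptosis. Natural killer (NK) cells use the same granules without a T cell receptor. Rat NK cells also carry the CD8 alpha chain, LCK and the zeta chain, so in bulk RNA these transcripts are not particular to T cells.

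Totals over named rows ranged from 3394451 to 6383983 counts per tumor. Values are given as raw counts and as CPM (each count as a share of its library's total scaled with edgeR's TMM factors of 0.861 to 1.13). A value of 3 counts was taken as the detection floor and corresponds to between 0.530 CPM (tumor 157) and 1.03 CPM (tumor 102). This floor and the 95% intervals on single values cover counting error only. Tumor 102 had the lowest mean correlation with the other tumors over all genes tested (0.829, against 0.867 to 0.898). For the genes described here the tumor that stood apart was tumor 107, and results are therefore given with and without it. The epithelial marker Epcam had between 899 and 2607 counts in every tumor. In bulk RNA, fewer cells of a type and less RNA per cell cannot be told apart.

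Of the CD3 delta, epsilon and gamma chains, delta and gamma were near the detection floor in both age groups, and epsilon had at most 26 counts in any tumor. Cd3d had 0, 4 and 7 counts in older tumors 102, 107 and 116, and 4, 0 and 2 counts in younger tumors 157, 158 and 167, so that 3 of 6 tumors lay at or under the floor and 2 had no count. Cd3g had 4, 4 and 15 counts in the older tumors and 8, 3 and 2 counts in the younger tumors, with 2 tumors at or under the floor. For both genes the age groups overlapped, and tumor 116 had the highest value. Cd3e, the best covered of the 3 chains, had 10, 19 and 26 counts in the older tumors (3.44, 4.32 and 5.21 CPM) and 8, 8 and 7 counts in the younger tumors (1.41, 1.45 and 1.73 CPM). All 3 older tumors were above all 3 younger tumors, again with tumor 116 highest, although the counting intervals overlapped (1.65 to 6.33 CPM in tumor 102, 0.695 to 3.56 CPM in tumor 167). The mean was 4.32 ± 0.882 CPM (SD, n = 3) in older tumors and 1.53 ± 0.172 CPM (SD, n = 3) in younger tumors.

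Cd247, whose zeta chain also serves receptors of NK cells, had 7, 64 and 20 counts in older tumors 102, 107 and 116 (2.41, 14.5 and 4.0 CPM) and 19, 12 and 16 counts in younger tumors 157, 158 and 167 (3.36, 2.17 and 3.95 CPM). Tumor 107 was 3.63-fold above the next highest tumor (95% counting interval 2.17 to 6.34). The other older tumors lay within or near the younger range. Lck showed a similar order, with 19, 248 and 51 counts in the older tumors (6.54, 56.4 and 10.2 CPM) and 51, 32 and 30 counts in the younger tumors (9.02, 5.79 and 7.41 CPM). For Lck, tumor 107 was 5.52-fold above tumor 116 (95% counting interval 4.07 to 7.62), and tumor 102 lay inside the younger range. Lck overlaps another annotated locus in RefSeq, and reads of overlapping genes may be split because the strand setting of the counting is not given in the sources used here.

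Cd8a, which encodes the CD8 alpha chain, had 30, 328 and 34 counts in older tumors 102, 107 and 116 (10.3, 74.6 and 6.81 CPM) and 26, 13 and 10 counts in younger tumors 157, 158 and 167 (4.60, 2.35 and 2.47 CPM). Each older tumor was above each younger tumor, and tumor 107 was 7.22-fold above tumor 102 (95% counting interval 4.96 to 10.9). Its partner Cd8b, the beta chain, which pairs with the alpha chain on cytotoxic T cells, had 5, 17 and 22 counts in the older tumors and 7, 5 and 2 counts in the younger tumors. Tumor 107 thus exceeded tumor 116 for Cd8a, whereas their Cd8b counts were within counting error of each other.

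The cytotoxic granule genes spanned the widest range. Gzmb (granzyme B) had 40, 911 and 36 counts in older tumors 102, 107 and 116 (13.8, 207 and 7.21 CPM) and 9, 18 and 6 counts in younger tumors 157, 158 and 167 (1.59, 3.26 and 1.48 CPM). All older tumors were above all younger tumors, and tumor 107 was 15.0-fold above tumor 102 (95% counting interval 11.0 to 21.2). Prf1 (perforin) had 29, 831 and 7 counts in the older tumors (9.98, 189 and 1.40 CPM) and 19, 2 and 4 counts in the younger tumors (3.36, 0.362 and 0.987 CPM). Here the groups overlapped, since tumor 116 lay below tumor 157, and tumor 158 was under the floor. Tumor 107 exceeded tumor 102 by 18.9-fold (95% counting interval 13.1 to 28.4). Nkg7, a granule membrane protein needed for degranulation, had 24, 540 and 19 counts in the older tumors (8.26, 123 and 3.80 CPM) and 21, 8 and 6 counts in the younger tumors (3.71, 1.45 and 1.48 CPM). Its groups did not overlap, but tumors 116 and 157 differed by less than their counting error. Gzmb belongs to a family of close copies, and Gzmc is its neighbor in RefSeq. Reads may be split among them, although both rows named Gzmc had 0 counts in every tumor.

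**Figure D1:**
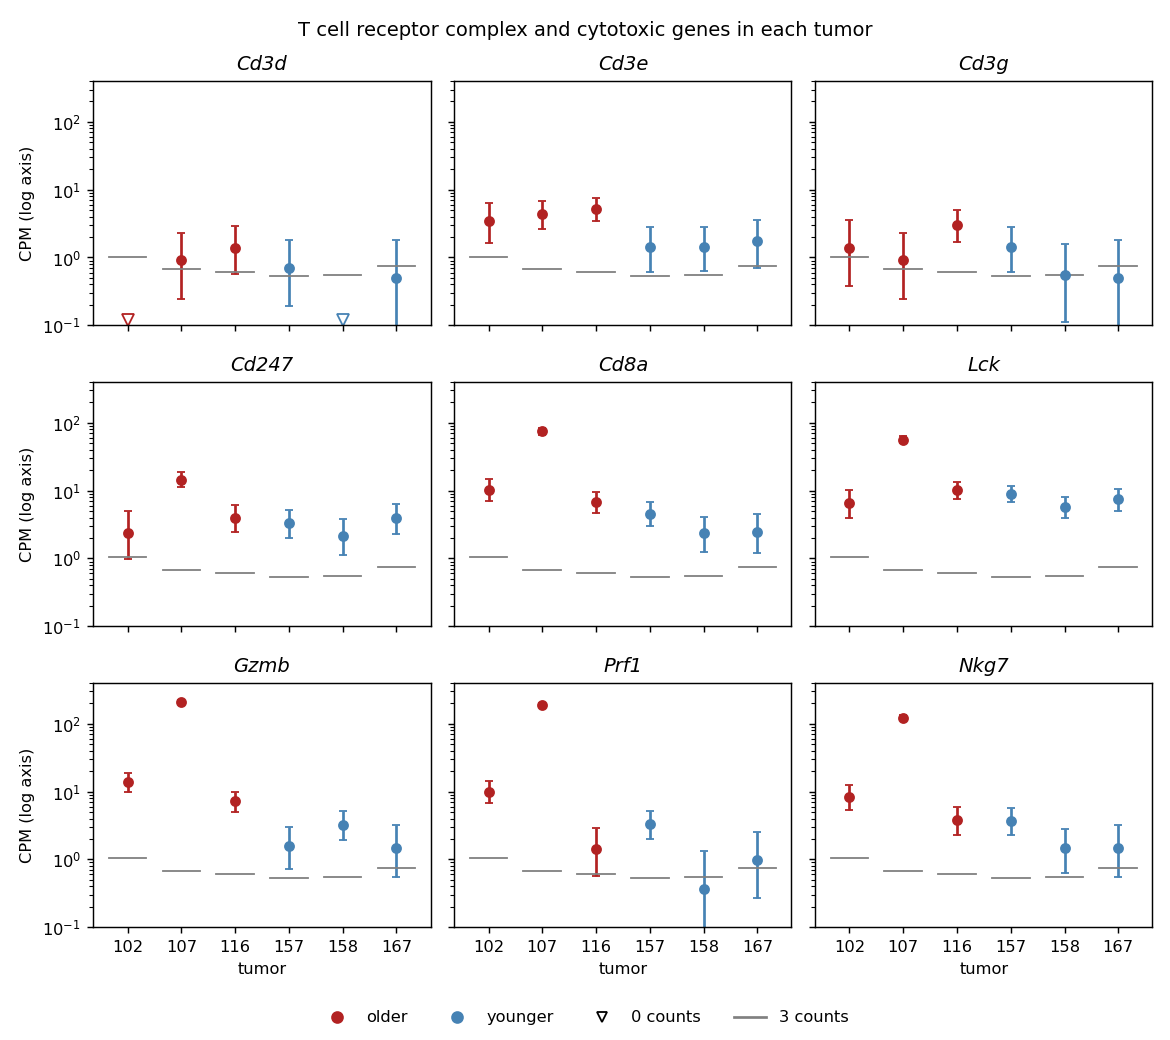
CPM (log axis) of each gene in each of the 6 tumors, with older tumors in red and younger tumors in blue. Bars are 95% counting intervals, cut at the lower edge of the axis, grey lines mark 3 counts in that library and open triangles mark 0 counts. Tumor 107 stands above every other tumor for Cd247, Cd8a, Lck, Gzmb, Prf1 and Nkg7, at 207 CPM for Gzmb, but not for Cd3d, Cd3e or Cd3g.

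Tumor 107 had the highest value for 6 of the 9 genes, where it was highest for 13.9% of all 13139 genes tested. It was at least 4-fold above the next tumor for 5 of the 7 genes tested (Cd8a, Lck, Gzmb, Prf1 and Nkg7), against 0.479% of all genes tested, 63 genes. Tumor 102 was highest at such a distance for 86 genes and tumor 158 for 46, none of them among the 9.

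Promoter sequences are shown for the granule genes and Cd8a, which stood far above the other tumors in tumor 107, and for Cd3e, which did not. They are the 250 bases before the annotated start, 5′ to 3′, from RefSeq on build GRCr8. The counts were made on mRatBN7.2 and carry no coordinates. Capitals mark GGAAG, the core of ETS factor sites, and TGTGGT, the core of RUNX factor sites, on either strand.
Gzmb promoter (chr15:34462470-34462719, minus strand): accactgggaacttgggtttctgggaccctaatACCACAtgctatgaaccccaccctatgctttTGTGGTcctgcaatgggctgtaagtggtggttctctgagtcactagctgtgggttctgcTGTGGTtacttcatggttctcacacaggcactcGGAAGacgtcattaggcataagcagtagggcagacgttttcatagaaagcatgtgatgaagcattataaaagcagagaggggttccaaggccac
Prf1 promoter (chr20:29788790-29789039, plus strand): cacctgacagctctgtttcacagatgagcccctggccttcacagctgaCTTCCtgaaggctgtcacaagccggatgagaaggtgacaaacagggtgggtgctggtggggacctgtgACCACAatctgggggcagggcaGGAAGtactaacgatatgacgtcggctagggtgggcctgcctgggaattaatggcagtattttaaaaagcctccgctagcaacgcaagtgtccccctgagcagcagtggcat
Nkg7 promoter (chr1:102981247-102981496, plus strand): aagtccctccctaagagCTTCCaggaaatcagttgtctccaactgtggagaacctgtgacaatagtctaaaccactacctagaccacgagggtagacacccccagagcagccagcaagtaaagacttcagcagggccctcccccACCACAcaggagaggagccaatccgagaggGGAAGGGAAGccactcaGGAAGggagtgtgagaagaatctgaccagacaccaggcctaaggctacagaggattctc
Cd8a promoter (chr4:104923866-104924115, plus strand): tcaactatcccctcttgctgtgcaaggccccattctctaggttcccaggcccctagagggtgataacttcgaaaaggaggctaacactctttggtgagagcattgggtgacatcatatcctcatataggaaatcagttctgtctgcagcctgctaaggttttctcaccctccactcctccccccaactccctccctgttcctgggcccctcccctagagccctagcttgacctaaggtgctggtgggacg
Cd3e promoter (chr8:54211771-54212020, minus strand): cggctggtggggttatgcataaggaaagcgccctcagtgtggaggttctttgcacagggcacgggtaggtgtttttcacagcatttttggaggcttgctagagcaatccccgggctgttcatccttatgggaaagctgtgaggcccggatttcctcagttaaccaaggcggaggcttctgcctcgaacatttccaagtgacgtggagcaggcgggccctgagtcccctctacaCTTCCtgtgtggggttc
GGTGTG, a core of sites for the T-box factors encoded by Tbx21 and Eomes, was searched in the same way and can share bases with TGTGGT. Of the 9 genes, 8 had GGAAG in this window (all but Cd8a), against 63.3% of 27457 RefSeq promoters of the same length. TGTGGT was found in 4 (Nkg7, Lck at the first of its 2 listed starts, Gzmb and Prf1), against 14.1% of promoters, and it occurred 3 times in the Gzmb window. GGTGTG was found in 0 of the 9, against 15.3%. These matches describe letters in a window and not binding.

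The comparison by age asked whether tumors from older rats differ from those of younger rats in these transcripts. With edgeR's quasi-likelihood test and Benjamini-Hochberg adjustment, 0 of 13139 genes passed an adjusted p of 0.05 (0.0% of genes tested), and 0 of the 7 T cell and cytotoxic genes with enough counts. Of these 7, 5 had an unadjusted p under 0.05 with higher values in older tumors (Cd3e, Cd8a, Gzmb, Prf1 and Nkg7), where 5.30% of all genes did. This count depended on the tool, since with limma-voom 1 of the 7 (Cd3e) had an unadjusted p under 0.05, against 4.07% of all genes. The filter on low counts bears on this, as Cd3e passed it only through the 3 older tumors, and Cd3d and Cd3g did not pass. With every gene of at least 1 count tested, 6 of the 9 genes had an unadjusted p under 0.05 in that direction, against 5.01% of 19536 genes. In that fit the log2 fold change was above 0 for all 9, with a median of 1.71, against a median of -0.00 over all genes.

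The sizes were large and poorly determined. Gzmb was at 76.0 ± 114 CPM (SD, n = 3) in older tumors and 2.11 ± 0.995 CPM (SD, n = 3) in younger tumors, which edgeR fitted as a log2 fold change of 5.14 ± 1.35 (SE, 95% interval 1.99 to 8.29, adjusted p = 0.334). The other granule genes also had wide intervals in edgeR, Prf1 at 5.36 ± 1.73 (SE, 95% interval 1.33 to 9.39, adjusted p = 0.412) and Nkg7 at 4.31 ± 1.33 (SE, 95% interval 1.21 to 7.41, adjusted p = 0.387) on the log2 scale. The log2 fold change of Cd8a was 3.27 ± 0.95 (SE, edgeR adjusted p = 0.361) and that of Cd3e 1.50 ± 0.46 (SE, edgeR adjusted p = 0.381). The intervals of Lck (-0.10 to 3.54) and Cd247 (-0.49 to 2.81) included no difference, around log2 fold changes of 1.72 (edgeR adjusted p = 0.613) and 1.16 (edgeR adjusted p = 0.764). DESeq2, which the submitters' processing notes list, passed 2 of the 7 genes, Cd8a (adjusted p = 0.0120) and Nkg7 (adjusted p = 0.00517), both higher in older tumors, against 1.67% of all genes. DESeq2 gave Prf1 an adjusted p of 0.0655 and withheld a p for Gzmb. Without tumor 107, DESeq2 passed 0 of the 7, where 1.16% of all genes passed with higher values in older tumors. In that fit 2 of the 7 (Cd8a and Gzmb) had an unadjusted p under 0.05, both higher in older tumors. Of all 13480 genes in that fit, 712 had such a p in that direction. With limma-voom the log2 fold changes were smaller, at 3.74 for Gzmb (95% interval -0.72 to 8.20), 3.49 for Prf1 (95% interval -2.65 to 9.64), 2.91 for Nkg7 (95% interval -1.15 to 6.97) and 2.51 for Cd8a (95% interval -0.20 to 5.22), and these intervals included no difference.

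Leaving out tumor 107 lowered most of these values. The log2 fold change fell to 0.05 for Cd247 and 0.19 for Lck. It fell to 2.27 for Gzmb (adjusted p = 0.425, edgeR), 1.78 for Prf1 (adjusted p = 0.765), 1.40 for Nkg7 (adjusted p = 0.679) and 1.42 for Cd8a (adjusted p = 0.576). Cd3e alone kept its size, at 1.50 (adjusted p = 0.578, edgeR). Without tumor 107, 3 of 7 genes (Cd3e, Cd8a and Gzmb) had an unadjusted p under 0.05 in edgeR with higher values in older tumors, against 4.86% of genes tested. In this fit too, Cd3e passed the filter on low counts only through older tumors, 102 and 116. Tumors 102 and 116 each remained above all younger tumors for 4 of the 9 genes, Cd3e, Cd8a, Gzmb and Nkg7, as they were for 10.8% of genes tested. With all tumors the same 4 genes separated the age groups, where 6.51% of genes tested had all older tumors above all younger tumors.

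**Figure D2:**
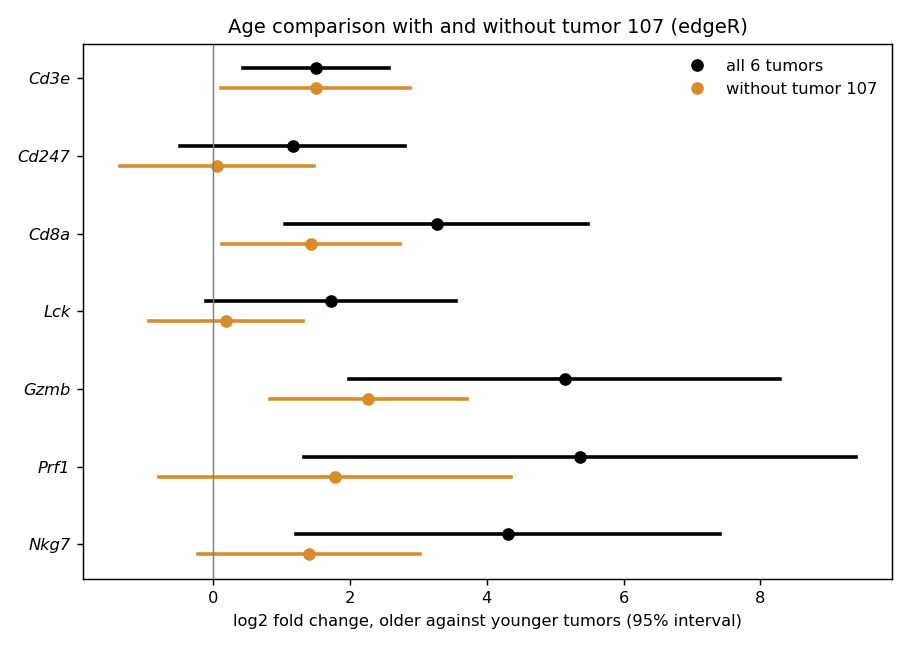
Log2 fold change of older against younger tumors for the 7 genes tested, with 95% intervals from edgeR, with all 6 tumors (black) and without tumor 107 (orange). Without that tumor Cd247 and Lck lie near 0 (0.05 and 0.19), whereas Cd3e stays at 1.50.

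Ratios of reads within a tumor do not depend on library scaling. The summed reads of Gzmb, Prf1 and Nkg7 relative to those of the CD3 chains (Cd3d, Cd3e, Cd3g and Cd247) were 4.43, 25.1 and 0.912 in older tumors 102, 107 and 116, and 1.26, 1.22 and 0.593 in younger tumors 157, 158 and 167. The older mean of the log2 ratio was higher by 2.27 (2.22 ± 2.39 against -0.05 ± 0.61, SD, n = 3), and by 1.05 without tumor 107. The age groups overlapped because tumor 116 had the second lowest ratio of all. Against Cd3d, Cd3e and Cd3g alone, the cytotoxic reads gave 84.5 in tumor 107 (95% counting interval 57.9 to 129), 6.64 in tumor 102 and between 1.29 and 2.55 in the other 4 tumors.

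Ratios were also taken for genes that T cells and NK cells share. Reads of Lck per read of Cd3d, Cd3e and Cd3g were 9.19 in tumor 107 and between 1.06 and 2.91 in the others. Reads of Cd247 per read of these chains were 2.37 in tumor 107 and between 0.417 and 1.45 in the others, with a counting interval that overlapped those of the 3 younger tumors. Cd8a reads per Cd8b read were 19.3 in tumor 107 (95% counting interval 11.9 to 33.5), 6.0 in tumor 102, 1.55 in tumor 116 and between 2.60 and 5.0 in younger tumors, which rest on 2 to 7 Cd8b counts, and the interval of tumor 107 overlapped those of tumors 102 and 167. Relative to Cd3d, Cd3e and Cd3g, tumor 107 was higher than each other tumor in granule reads beyond their counting intervals, and in Lck reads beyond those of all but tumor 158. Tumor 116 was the older tumor with the most reads of these 3 chains (48, against 27 in tumor 107).

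**Figure D3:**
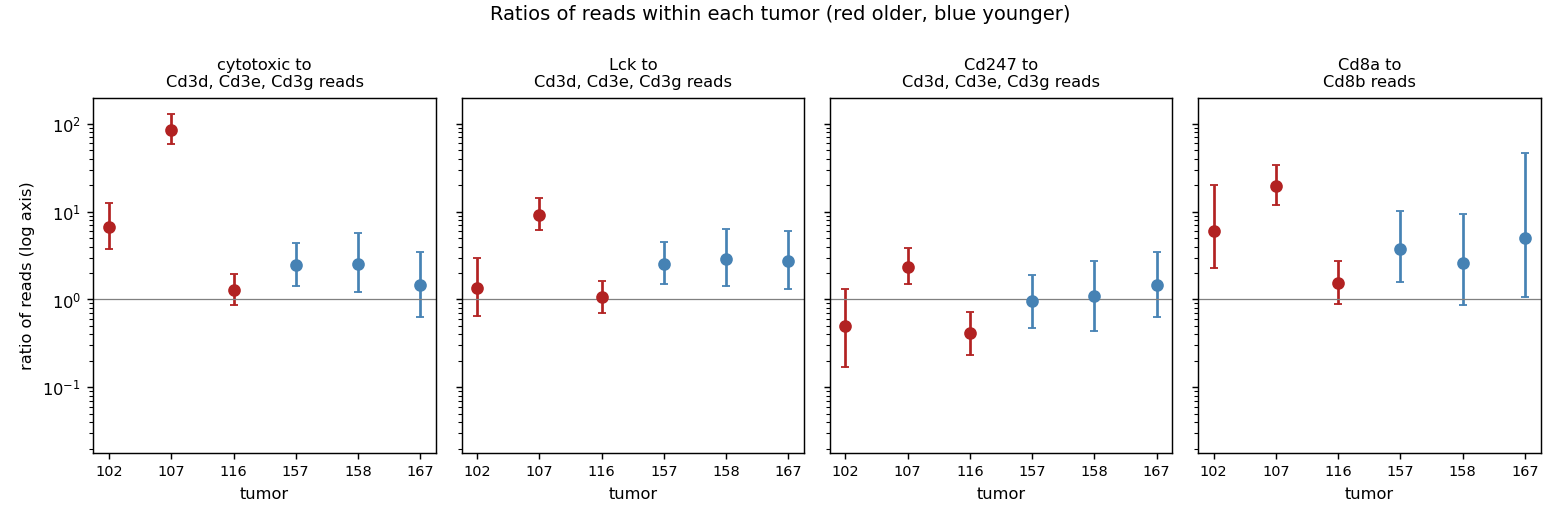
Ratios of reads within each tumor on a log axis, with exact 95% counting intervals, for older (red) and younger (blue) tumors. The cytotoxic genes are Gzmb, Prf1 and Nkg7, and their ratio to Cd3d, Cd3e and Cd3g is 84.5 in tumor 107 and at most 6.64 elsewhere.

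Set against Ptprc, which encodes the leukocyte antigen CD45, the cytotoxic reads were 1.47 per Ptprc read in tumor 107 and between 0.0773 and 0.165 in the other 5 tumors. Reads of Cd3d, Cd3e and Cd3g were 0.0173 per Ptprc read in tumor 107 and 0.0227 in tumor 102, below the 0.0531 to 0.0952 of the other 4 tumors. Ptprc itself had 616, 1557 and 504 counts in older tumors 102, 107 and 116 and 332, 170 and 207 counts in younger tumors 157, 158 and 167, with a log2 fold change of 2.25 (adjusted p = 0.271, edgeR).

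Other genes of cytotoxic cells and NK receptors were described from a list of 25, of which 22 were found and 10 had enough counts to be tested. None passed the adjusted threshold. All 10 were above 0 in log2 fold change, with a median of 2.19 (1.12 without tumor 107), and 7 had an unadjusted p under 0.05 (3 of 9 without tumor 107), against 5.30% of all genes (4.86% without tumor 107). Of the 7, Gzma and Klrb1c passed the filter on low counts only through older tumors. Klrd1, which encodes the CD94 subunit of NK receptors, had 66, 337 and 22 counts in the older tumors and 10, 10 and 9 counts in the younger tumors. Ncr1, encoding the activating NK receptor NKp46, had 2, 29 and 1 counts in the older tumors and 3, 0 and 0 counts in the younger tumors. Klrb1 had 53 counts in tumor 107 and at most 2 elsewhere. These receptors were thus highest in tumor 107, and Ncr1 and Klrb1 were at or under the floor in the other 5. Over the list, tumor 107 was highest for 19 of the 22 genes found, against 13.9% of all genes tested. Of the 10 tested genes it was highest for 9, and at least 4-fold above the next tumor for 3 (0.479% of all genes tested). Ctsw was highest in tumor 116 (36 counts, 23 in tumor 107). For Cd160 and Srgn, tumor 107 was only 1.14-fold and 1.08-fold above the next tumor.

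Among effector genes of the list, Gzma (granzyme A) had 8, 119 and 26 counts in the older tumors and 2, 9 and 4 counts in the younger tumors. Gzmm had 43 counts in tumor 107 and at most 4 elsewhere, and Gzmk had 87 counts there, 13 in tumor 102 and at most 8 elsewhere. Ccl5, a chemokine made by activated T and NK cells, had 68, 746 and 45 counts in the older tumors and 13, 17 and 1 counts in the younger tumors (log2 fold change 5.10, adjusted p = 0.315, edgeR, and 3.04 without tumor 107). Ifng, the main cytokine of these cells, had 5 counts in tumor 107 and 0 in the other 5 tumors.

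**Figure D4:**
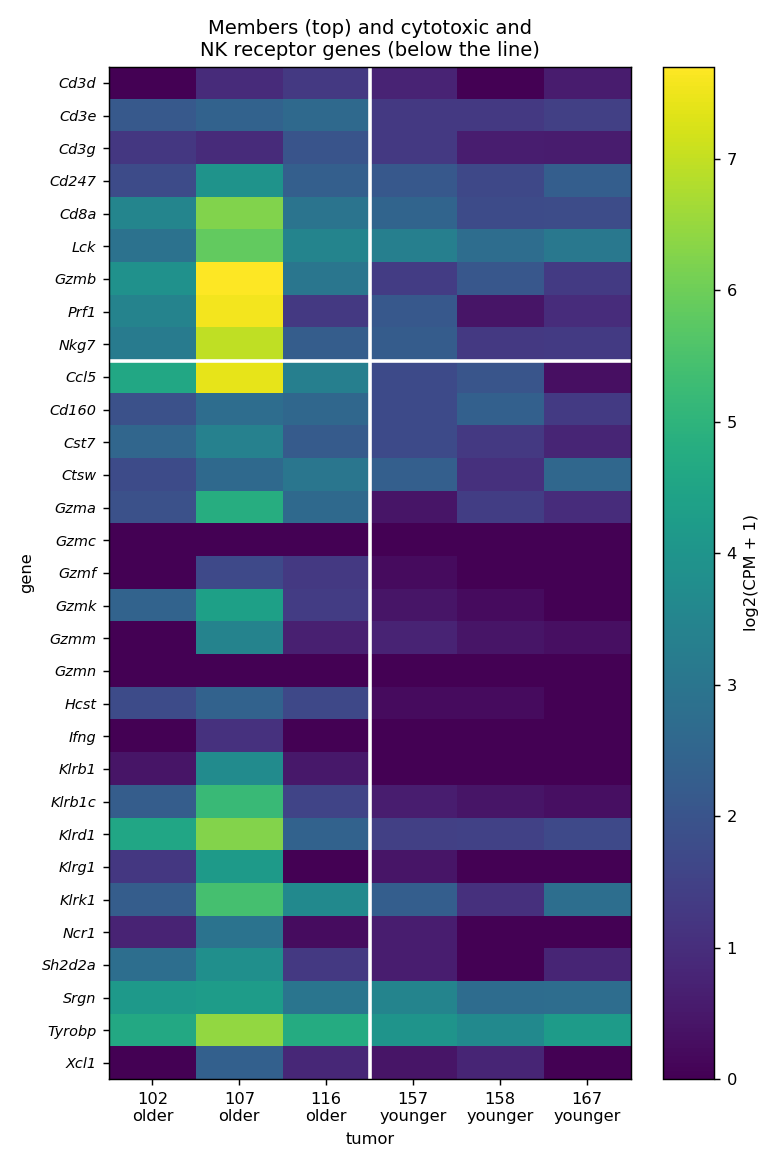
Log2(CPM + 1) in the 6 tumors for the 9 genes (above the white line) and for the other cytotoxic and NK receptor genes (below it). The column of tumor 107 is the brightest for Gzmb, Prf1, Nkg7, Ccl5 and Klrd1, while the rows of Cd3d, Cd3e and Cd3g are dark in every tumor.

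Signaling and co-stimulatory genes of T cells were taken from a list of 24, all found, of which 10 were tested and 0 passed the adjusted threshold. Their log2 fold changes were all above 0, with a median of 1.50 (1.05 without tumor 107), and 4 had an unadjusted p under 0.05, with and without that tumor, against 5.30% and 4.86% of all genes. Zap70, the kinase recruited to phosphorylated CD3 tails and also used by NK cells, had 43 counts in tumor 107 and at most 10 elsewhere. Txk, a Tec family kinase of T and NK cells, had 80 counts in tumor 107 and at most 9 elsewhere. Tumor 107 was highest for 7 of the 10 tested genes and at least 4-fold above the next tumor for 0 of them, against 13.9% and 0.479% of all genes tested. Over the whole list, 14 of the 24 genes were highest in tumor 107, among them the adaptors Lat (48 counts, at most 23 elsewhere) and Lcp2 (476 counts, at most 153 elsewhere) and the co-stimulators Icos (22 counts) and Cd2 (24 counts). Of the others, chosen after their values were seen, Cd5 had 3 counts in tumor 107 and at most 8 in any tumor, Cd28 had 4 there and 29 in tumor 116, and Themis had 1 there and 5 in tumor 116.

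Genes of T cell identity and homing came from a list of 26, of which 22 were found and 16 were tested. Of the 16, 13 were higher and 3 lower in older tumors by sign, 0 passed the adjusted threshold and 6 had an unadjusted p under 0.05, all higher, against 5.30% of all genes. Of the 6, Cd69, Ikzf3 and Il2ra passed the filter only through older tumors. Without tumor 107, 15 were tested and 5 had an unadjusted p under 0.05 in edgeR, 4 higher (4.86% of all genes) and 1 lower (3.42% of all genes). The lower gene was Gata3 (log2 fold change -1.16, and -0.50 with all 6 tumors). Luminal epithelial cells also express it, and it stood at 150 to 431 CPM. With all 6 tumors, epithelial markers were likewise lower in older tumors by sign (7 of 7). Without tumor 107, the epithelial markers Krt18 and Krt7 were above 0 (0.18 and 0.21) and the others stayed below 0. The part of epithelial cells in the Gata3 value was not tested. Without tumor 107 the median log2 fold change of the T cell identity list was 0.52 in place of 1.04. Eomes, a T-box factor of NK and memory cytotoxic T cells, had 102 counts in tumor 107 and at most 4 elsewhere. Tbx21, encoding T-bet, had 105 counts in tumor 107, 21 in tumor 102 and at most 4 in the other 4 tumors. Il2rb, a receptor subunit for interleukins 2 and 15 that NK cells carry, had 64, 732 and 57 counts in the older tumors and 76, 23 and 16 counts in the younger tumors. Foxp3, the factor of regulatory T cells, did not separate the groups, with 21, 20 and 31 counts in the older tumors and 40, 41 and 25 counts in the younger tumors. Bcl11b, required for T cell identity, had 26 counts in tumor 107 and 34 and 44 in tumors 116 and 157. Tumor 107 was highest for 11 of the 22 genes, against 13.9% of all genes tested. Of the 16 tested genes it was highest for 8, and at least 4-fold above the next tumor for 3 (0.479% of all genes tested). The 11 included Tcf7, a factor of naive and memory T cells (160 counts, at most 91 elsewhere). They also included the activation marker Cd69 (57 counts, at most 20 elsewhere) and Ikzf3 (198 counts, at most 29 elsewhere).

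Across the 6 tumors, the 5 genes most like the mean profile of the 7 tested genes, among 13132 compared, were Arhgdib (r = 0.999), Irf8 (0.998), Prkcb (0.994), CXHXorf65 (0.994) and Itgad (0.989). Arhgdib, a GTPase regulator of blood cells, had 64, 367 and 113 counts in the older tumors and 85, 68 and 53 counts in the younger tumors. Irf8, a factor of myeloid and lymphoid cells, had 59, 466 and 116 counts in the older tumors and 83, 51 and 46 counts in the younger tumors. Without tumor 107 the correlations were 0.940 to 0.993 over 5 tumors. Within the group, Cd8a and Nkg7 correlated at 0.99 with all tumors and 0.98 without tumor 107, and Cd247 and Lck at 0.98 and 0.83. Cd247 and Gzmb correlated at 0.79 with all tumors and at -0.36 without tumor 107. The tumors share no library, and all these values rest on 6 points or fewer.

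Markers of other cells were read beside these results, and their part in them was not tested. Macrophage and monocyte markers summed to between 826 and 1462 CPM in older tumors and between 229 and 649 CPM in younger tumors, with 12 of 13 tested genes higher in older tumors by sign and 8 at an unadjusted p under 0.05 with higher values, against 5.30% of all genes. In tumor 107 this sum was 1462 CPM and in tumor 102 it was 1031 CPM. Lyz2 gave 514, 837 and 333 CPM of it in older tumors 102, 107 and 116. In younger tumors 157, 158 and 167 Lyz2 gave 140, 81.8 and 42.2 CPM. Cd14 was highest in younger tumor 158, at 421 CPM. Without Lyz2 the macrophage sums overlapped between the groups, with younger tumor 158 above older tumors 102 and 116. Dendritic cell markers ran from 39.6 to 201 CPM in older tumors and from 22.8 to 28.1 CPM in younger tumors, with Xcr1 at 128 counts in tumor 107 and at most 6 elsewhere. Mast cell markers ran from 261 to 312 CPM in older tumors and from 74.8 to 189 CPM in younger tumors, of which Kit, which epithelial cells also express, gave 172 to 295 CPM in older and 36.8 to 116 CPM in younger tumors. Without Kit the 6 other mast cell genes overlapped between the groups, with 14.1, 140.0 and 3.0 CPM in older tumors 102, 107 and 116 and 38.0, 6.69 and 137.5 CPM in younger tumors 157, 158 and 167. The mast cell protease Cpa3 had 243 counts in tumor 107 and 307 in tumor 167, the tumor with the lowest Gzmb value.

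B cell markers summed to between 2.71 and 14.5 CPM, with Ms4a1 and Cd79b at 0 in every tumor. Cd22 was above the floor, with 7, 36 and 20 counts in the older tumors and 18, 4 and 6 counts in the younger tumors, and Blk had 16 counts in tumor 107 and at most 3 elsewhere. Of the lymph node markers, Ccl21, Ccl19, Cr2 and Madcam1 had at most 3 counts in any tumor. Cxcl13, a chemokine of lymphoid follicles, was above the floor, with 65, 38 and 7 counts in the older tumors and 61, 56 and 5 counts in the younger tumors, and Fcer2 had between 1 and 14 counts. The list's sum, 91.1 to 4093 CPM in older and 14.3 to 58.1 CPM in younger tumors, came mostly from Glycam1 in tumors 102 and 107 (11822 and 5093 counts), which is also a milk protein gene. Plasma cell markers summed to between 756 and 1465 CPM in older tumors and between 597 and 732 CPM in younger tumors. Most of this was Xbp1, at 611 to 1366 CPM in older and 311 to 517 CPM in younger tumors. Without Xbp1 the sum was lower in every older tumor than in every younger tumor, and most of it was Sdc1. Mzb1 had at most 1 count, whereas Jchain, the joining chain of secreted antibodies, had 35, 17 and 105 counts in the older tumors and 4, 17 and 2 counts in the younger tumors (log2 fold change 3.06, edgeR adjusted p = 0.342). Sdc1, a marker of plasma cells that epithelial cells also carry, had the opposite sign (log2 fold change -1.19, edgeR adjusted p = 0.315). Neutrophil markers stayed between 0.987 and 9.72 CPM, with none tested.

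Epithelial markers summed to between 1328 and 1407 CPM in older tumors and between 1664 and 1977 CPM in younger tumors, without overlap, and 7 of 7 tested were lower in older tumors by sign. Fibroblast markers ranged from 133 to 1317 CPM in older tumors and from 122 to 1052 CPM in younger tumors. They were low in tumor 107, where Pdgfra had 4 counts and Dcn 10, and in tumor 167. Endothelial markers (114 to 431 CPM in older and 80.5 to 336 CPM in younger tumors) and red blood cell markers (88.5 to 187 and 178 to 337 CPM) overlapped between the groups. Adipocyte markers (281 to 695 CPM in older and 78.5 to 227 CPM in younger tumors) came mostly from Lpl, at 261 to 519 CPM in older and 63.3 to 213 CPM in younger tumors, whereas Fabp4, Plin1 and Adipoq overlapped between the groups.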

How the data were processed

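Bulk RNA-seq of 6 rat mammary tumors was available as a table of read counts. Per the labels and the supplementary methods, the authors depleted ribosomal RNA, sequenced on an Illumina instrument, trimmed reads with Trimmomatic, used STAR for alignment and Picard for marking duplicates, and deposited unnormalized counts per gene made with HTSeq 0.13.5. The submitters' processing notes list build mRatBN7.2. Annotation and strand setting are not given in the sources used here. Columns were matched to tumors by tumor number, with 0 left unused. The 4367 rows without a gene name (2.17% to 3.64% of counts) were left out of library sizes and tests.

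The fit of these counts used edgeR 4.0.16 in R 4.3.3 (TMM, filterByExpr by age group with a minimum count of 10, quasi-likelihood test, Benjamini-Hochberg adjustment, threshold 0.05). DESeq2 1.42.0 and limma-voom (limma 3.58.1) were alternatives, as were other scalings, other count filters, library totals without the 10 genes of most counts, and fits without each tumor. Standard errors came from the F statistic and the fold change. Log2 CPM for correlations used a prior count of 2. Counting intervals are exact (Poisson, or binomial for ratios) at 95%. The test was checked on simulated data. The members, gene lists and tests were chosen with earlier results of these data known, and the ratios to Cd8b, Ptprc and single CD3 chains after values were seen. All 9 members are named. Of the listed genes, the rule named those with an unadjusted p under 0.05, those at or near 0 and those set beside a member result, and of these only some are printed. Genes of like pattern were the 5 with the highest Pearson correlation among genes with a mean of at least 1 CPM. Promoters were matched by symbol in RefSeq (GRCr8) for all 9. No permutation test was run, since 3 tumors a group cannot reach an exact two-sided p under 0.1. Some listed genes are not reported here.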

Additional observations from a re-analysis of the deposited data

How the results depend on the processing

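No paired analysis was possible because no replicate number is shared between age groups. The planned ratio of Cd8a to Cd4 reads was not run, since no row was matched to Cd4. The count of genes past the adjusted threshold was 0 with edgeR, where 1128 genes had an unadjusted p under 0.05, 0 with limma-voom, 326 with DESeq2 and 244 with DESeq2 without tumor 107 (a fit added after seeing the data), and 0 to 0 in edgeR with each tumor left out. For the T cell and cytotoxic genes this count was 0 with edgeR, 2 with DESeq2, 0 with DESeq2 without tumor 107 and 0 to 0 in edgeR with each tumor left out. The median log2 fold change of the 7 tested genes was 3.27. It was 1.71 with every gene of at least 1 count, where 9 genes were tested, 2.51 with limma-voom, 1.42 to 3.74 in edgeR with each tumor left out, lowest without tumor 107, and 1.42 in DESeq2 without that tumor. The log2 ratio of cytotoxic to CD3 chain reads differed by 2.27 between groups and by 1.05 to 3.44 with each tumor left out, lowest without tumor 107 and highest without tumor 116. Log2 fold changes of single genes kept their sign in 99 of 99 values under the alternatives (1 gene in 1 setting each), and 2 passed the threshold, both with DESeq2 and all 6 tumors. With at least 10 counts in every tumor only Cd8a and Lck could be tested. Depth limits Cd3d and Cd3g, which could be tested only without the filter on low counts (log2 fold change 0.98, 95% interval -1.91 to 3.86, and 1.06, 95% interval -0.84 to 2.96).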
